A study of Danio rerio with 24 samples.

Results

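The mitochondrial genome carries 13 protein-coding messages, and 6 of them encode subunits of the respiratory chain other than complex I. They were taken by gene identifier from the count tables as mt-co1 (ENSDARG00000063905), mt-co2 (ENSDARG00000063908), mt-co3 (ENSDARG00000063912), mt-cyb (ENSDARG00000063924), mt-atp6 (ENSDARG00000063911) and mt-atp8 (ENSDARG00000063910). They are 6 of 32105 gene rows, and all 6 passed the filter on low counts in every comparison. The libraries are liver RNA of 24 male zebrafish, 1 per fish, and every fish has a rotenone concentration in its label, rotenone being an inhibitor of complex I. Of these, 6 were 3 years old and kept at 37.5 nM, while the 1-year-olds were split into 9 kept at 37.5 nM and 9 at 3.75 nM. The 1-year fish were of the strain labelled AB JxTu, and the 3-year fish were AB JxTu carrying Tg(flk:mCherry), a reporter driven by a promoter of endothelial cells. Age and the transgenic line cannot be told apart. No fish is labelled as untreated, and the labels give no duration for the exposure.

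Fish numbers ran from 189 to 202 and from 163 to 181, called here the upper and the lower number series, and the labels do not say what separates them. The upper series held 4 of the 3-year fish, 5 of the 1-year fish at 37.5 nM and 5 of those at 3.75 nM, and the lower series held 2, 4 and 4. The fish at 3.75 nM came in a count table of their own, so dose and table cannot be told apart. Replicates are different fish, and p-values therefore measure against fish-to-fish spread.

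Mitochondrial DNA is transcribed into long precursors of both strands, which are cut into single messages mainly at the transfer RNAs that lie between the genes. The messages are then given a poly(A) tail and translated inside the organelle. mt-co1, mt-co2 and mt-co3 encode the catalytic core of cytochrome c oxidase (complex IV), which reduces oxygen to water. mt-cyb encodes cytochrome b, the mitochondrially made subunit of complex III, which passes electrons from ubiquinol to cytochrome c. mt-atp6 and mt-atp8 encode subunits of the membrane part of ATP synthase (complex V), mt-atp6 being part of its proton path. In vertebrates the reading frames of mt-atp8 and mt-atp6 overlap and are usually carried on 1 shared RNA. In the reference table mt-atp8, mt-atp6 and mt-co3 are neighbours in this order, so reads at their joins may have been counted for either gene or for none. Whether counting used the strand is not given in the sources used here, and reads of the opposite strand cannot be told apart. Nuclear near-copies of mitochondrial DNA make all 6 counts uncertain to an extent that was not tested.

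Total counts per library ranged from 24644663 to 45297644. Liver markers were high in every fish: fabp10a, the fatty acid binding protein of the liver, ranged from 6936 to 26652 CPM, and apoa2 from 21776 to 55833 CPM. CPM is the count divided by the library's total, scaled by its TMM factor, and given per 1000000. Summed markers of some other cells varied widely, while the 4 endothelium rows summed to 96.5 to 181 CPM over all 24 fish. The 10 matched intestine genes summed to 404 to 4944 CPM in 3-year fish, 1947 to 35163 CPM in 1-year fish at 37.5 nM and 733 to 13414 CPM in 1-year fish at 3.75 nM. The highest values were those of 1-year replicate 7 at 37.5 nM and replicate 3 at 3.75 nM. Fits without these 2 libraries are given beside calls and counts they moved, except for the interaction calls of nuclear genes. Dose and age within a single number series were not fitted without them.

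The 6 messages were among the most abundant in these liver libraries. Together they held 3.35% to 8.06% of a library, with 4.76 ± 0.91% in 3-year fish at 37.5 nM (SD, n = 6), 5.93 ± 1.46% in 1-year fish at 37.5 nM (n = 9) and 5.01 ± 1.25% in 1-year fish at 3.75 nM (n = 9). By mean CPM, mt-co1 ranked 4 among 9614 genes with a mean of at least 4 CPM. mt-co3 ranked 12, mt-co2 ranked 14, mt-atp6 ranked 18, mt-cyb ranked 19 and mt-atp8, the shortest of them, ranked 145. In whole tissue, fewer cells of a type and less RNA per cell cannot be told apart.

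Per kilobase of gene length, the order was mt-co1, mt-co3, mt-co2, mt-atp6, mt-cyb, mt-atp8. Mean levels over the 24 fish were 13312, 12699, 12411, 9853, 5751 and 5697 CPM per kilobase in this order, for gene lengths of 1551, 786, 691, 684, 1141 and 165 bases. The first 3 did not separate from each other: mt-co1 lay above mt-co3 in 14 of 24 fish, and mt-co3 above mt-co2 in 17 of 24. mt-co2 lay above mt-atp6 in 23 of 24 fish and mt-atp6 above mt-cyb in all 24. mt-cyb and mt-atp8 did not separate, with mt-cyb the higher in 13 of 24 fish.

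In all 24 fish, each of the 6 messages lay above each of the 7 complex I messages per kilobase. The lowest mean among the 6 was 5697 CPM per kilobase, and the highest among the 7 was 2567, that of mt-nd4. Within a fish, the lowest of the 6 was 1.41 to 2.64 times the highest of the 7. The 6 made up 78.8 ± 2.02% of the counts of all 13 messages in 3-year fish at 37.5 nM, 81.3 ± 1.19% in 1-year fish at 37.5 nM and 81.0 ± 1.29% in 1-year fish at 3.75 nM. The 2 lowest shares were those of the 3-year fish 196 and 197, at 77.0% and 76.0%.

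**Figure D1:**
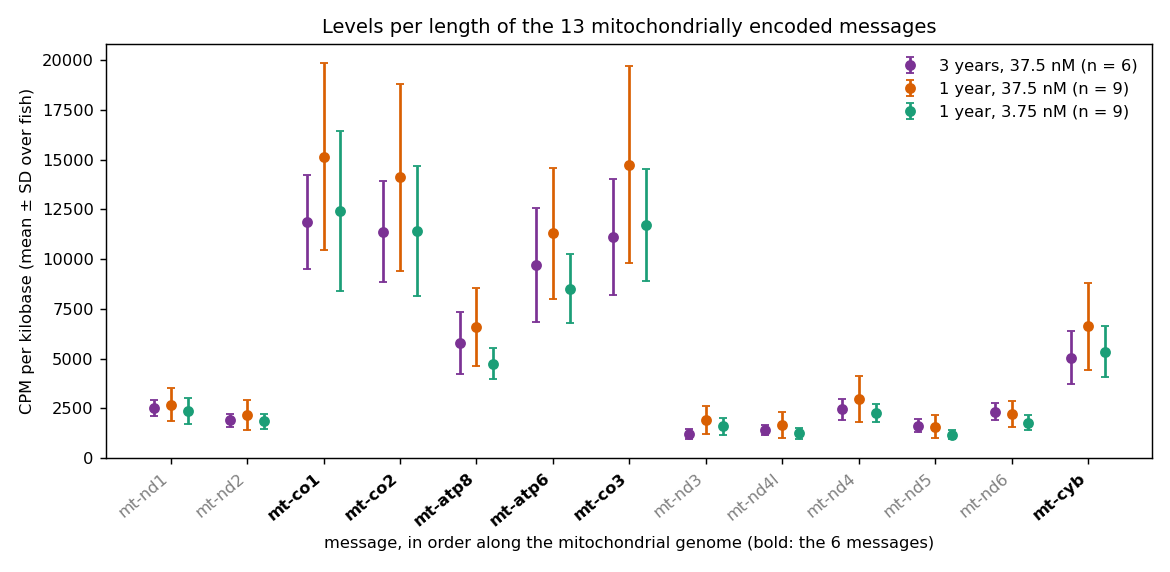
Mean level per kilobase ± SD over fish (y axis, CPM per kilobase) of the 13 mitochondrially encoded messages, in their order along the mitochondrial genome, for 3-year fish at 37.5 nM (n = 6), 1-year fish at 37.5 nM (n = 9) and 1-year fish at 3.75 nM (n = 9). The 6 messages in bold stand above the 7 complex I messages, whose means over all fish do not exceed 2567.

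The 6 messages varied together over fish. Pearson's r of log2 CPM over the 24 fish, which share the library scaling and the dose and age groups, lay between 0.745 and 0.979 for the 15 pairs among the 6 (median 0.897). Between the 6 and the 7 complex I messages it lay between 0.666 and 0.946 over 42 pairs (median 0.822). The highest values were 0.979 for mt-co2 with mt-co3 and 0.972 for mt-atp6 with mt-atp8. Within groups and number series, the SD of log2 CPM was 0.33 to 0.39 for the 6 messages, against a median of 0.37 over all 9614 genes.

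The ratio of the 2 ATP synthase messages varied little. Per kilobase, mt-atp8 stood at 0.601 ± 0.021 of mt-atp6 in 3-year fish at 37.5 nM (SD, n = 6), 0.583 ± 0.037 in 1-year fish at 37.5 nM (n = 9) and 0.561 ± 0.037 in 1-year fish at 3.75 nM (n = 9). Over all 24 fish the ratio lay between 0.482 and 0.651, an SD of 0.092 on the log2 scale. The ratio of mt-co3 to its neighbour mt-atp6 was 1.16 ± 0.11 in 3-year fish, 1.30 ± 0.14 in 1-year fish at 37.5 nM and 1.38 ± 0.18 in 1-year fish at 3.75 nM, with an SD of 0.19 on the log2 scale over all fish. mt-co2 to mt-co1 stood at 0.961 ± 0.098, 0.933 ± 0.113 and 0.927 ± 0.105 in the same groups.

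The genes most like each message, by Pearson's r of log2 CPM over the 24 fish, were other mitochondrially encoded ones for all 6. For mt-co1 they were mt-co2 (0.929), mt-nd3 (0.919) and mt-nd4 (0.916), and for mt-cyb they were mt-co3 (0.966), mt-co2 (0.934) and mt-nd3 (0.924). mt-atp8 was most like mt-atp6 (0.972), mt-nd4 (0.874) and mt-nd4l (0.853). Outside the 13 messages, the gene row most like the mean of the 6 was ENSDARG00000083312 (0.870), which has no symbol in the name table and was not looked up as mitochondrially encoded or nuclear. After it came zfx (0.785), a zinc finger transcription factor, AKAP17A (0.782), si:dkey-118j18.2 (0.778) and fbp1a (0.761), a fructose bisphosphatase. At the other end stood BCS1L (−0.74), an assembly factor of complex III, BCAS2 (−0.74), a splicing factor, coa5 (−0.72), an assembly factor of complex IV, PIGQ (−0.72) and cspp1b (−0.72).

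**Figure D2:**
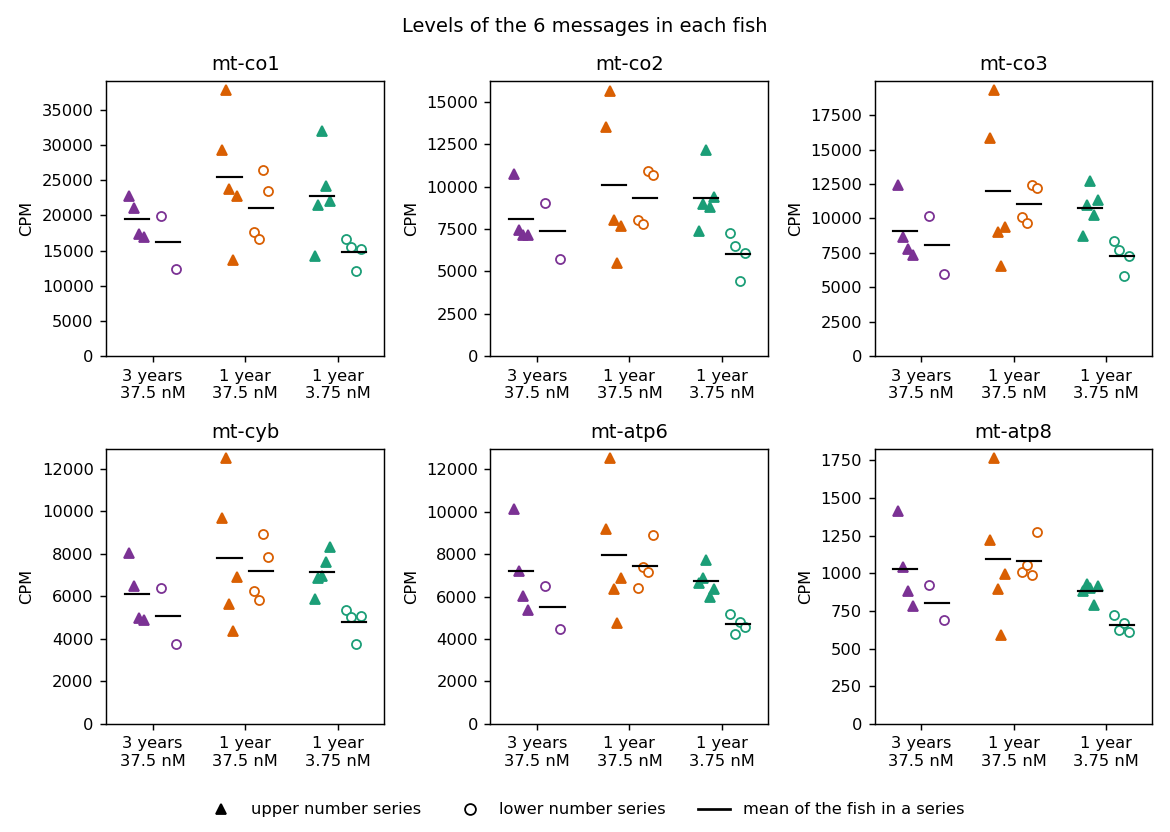
Level of each of the 6 messages in each fish (y axis, CPM, starting at 0) for 3-year fish at 37.5 nM, 1-year fish at 37.5 nM and 1-year fish at 3.75 nM, with filled triangles for the upper and open circles for the lower number series and a bar at the mean of each series. At 3.75 nM the 5 upper series fish lie above the 4 lower series fish in 5 of the 6 panels, and in mt-co1 4 of the 5 do, while the same separation held for 6.27% of all genes.

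Dose was compared among the 1-year fish, 37.5 nM against 3.75 nM. All 6 messages were higher at 37.5 nM, by 0.29 to 0.48 log2, but none passed edgeR's quasi-likelihood test (adjusted p below 0.05), beside 11.4% of the 15465 genes tested. At an unadjusted p below 0.05 there were 2 messages, mt-atp6 and mt-atp8, both higher, beside 28.0% of all genes and 12.0% that were higher. The median change of the 6 was 0.32, against 0.027 over all genes tested. In size, regardless of direction, 33.6% of genes changed more than mt-atp8 and 54.7% more than mt-co1, with the other messages between. The 2 groups overlapped for all 6 messages, as they did for all but 0.239% of genes. Without the 2 libraries of high intestine markers the changes of the 6 were 0.22 to 0.48 (adjusted p = 0.0946 to 0.544). Other fits called few of them. DESeq2 called 1 of the 6 beside 17.5% of all genes, and limma voom called 2 beside 25.8%. By edgeR, 1 passed with upper-quartile factors (10.9% of all genes), 1 among genes with a mean of at least 4 CPM (18.6%) and 1 with number series as a covariate (16.5%).

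The oxidase messages had broad and overlapping ranges. mt-co1 had a lowest, median and highest value of 13614, 23433 and 37857 CPM at 37.5 nM, against 12067, 16692 and 32003 CPM at 3.75 nM. Its log2 change was 0.29 ± 0.21 (estimate ± SE, edgeR adjusted p = 0.391). mt-co2 had 5473, 8020 and 15672 CPM at 37.5 nM, against 4410, 7373 and 12177 CPM at 3.75 nM (0.31 ± 0.21, adjusted p = 0.349). The fish of both groups lay among each other for both genes. mt-co3 had 6553, 10068 and 19303 CPM at 37.5 nM, against 5777, 8692 and 12685 CPM at 3.75 nM (0.33 ± 0.20, adjusted p = 0.282).

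For cytochrome b, the lowest, median and highest fish had 4388, 6927 and 12509 CPM at 37.5 nM, against 3776, 5901 and 8341 CPM at 3.75 nM. The log2 change of mt-cyb was 0.31 ± 0.19 (edgeR adjusted p = 0.314), and the groups overlapped.

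The ATP synthase messages had the highest changes of the 6. In mt-atp6 the fish had 4768, 7149 and 12554 CPM (lowest, median, highest) at 37.5 nM, against 4243, 5967 and 7746 CPM at 3.75 nM, a log2 change of 0.41 ± 0.17 (edgeR adjusted p = 0.124). mt-atp8 had 591, 1006 and 1767 CPM at 37.5 nM, against 612, 788 and 928 CPM at 3.75 nM. Its log2 change was 0.48 ± 0.17 (edgeR adjusted p = 0.0681). For mt-atp8, 7 of 9 values at 37.5 nM exceeded the whole 3.75 nM group, and 1, that of fish 201, was under it. Without this fish (replicate 8) the log2 change of mt-atp8 was 0.56 and its edgeR adjusted p was 0.0321, beside 7.6% of all genes past the threshold. Of the 18 fits that left out 1 library, mt-atp8 passed in this 1 alone.

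Fish 199 had the highest CPM of all 24 fish for each of the 6 messages, and fish 201 the lowest of its group. The place of fish 199 depended on the scaling. By library size alone, fish 198 was the highest of the 24 for 4 of the 6, and fish 201 stayed the lowest of its group for all 6.

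The dose comparison within each number series gave unlike counts. In the upper series (5 fish against 5), 0 of the 6 messages passed by edgeR, as for all 16034 genes tested (0.00%), and 0 had an unadjusted p below 0.05, against 7.6% of all genes. The log2 changes were again all above 0, from 0.15 for mt-co2 to 0.35 for mt-atp8, with adjusted p-values of 0.803 to 0.949. mt-atp8 had 1224, 1767, 892, 591 and 994 CPM in the 5 fish at 37.5 nM, against 879, 928, 900, 788 and 919 CPM in the 5 fish at 3.75 nM. The fish at 37.5 nM spanned the whole range of those at 3.75 nM.

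In the lower series (4 fish against 4), 5 of the 6 messages rose at 37.5 nM by edgeR, beside 34.8% of the 15199 genes tested and 17.3% that rose. The 4 fish at 3.75 nM include fish 166 (replicate 3), a library of high intestine markers. With either scaling, fish 166 was the lowest of all 24 fish for 4 of the 6 messages. No fit of this series was run without it. mt-atp8 had 1006, 1056, 991 and 1273 CPM in the 4 fish at 37.5 nM, against 720, 623, 669 and 612 CPM in the 4 fish at 3.75 nM. It rose by 0.72 ± 0.13 log2 (adjusted p = 0.0038), with every fish at 37.5 nM above every fish at 3.75 nM. mt-atp6 rose by 0.67 ± 0.15 (adjusted p = 0.0101), mt-co2 by 0.63 ± 0.20 (0.0404), mt-co3 by 0.61 ± 0.17 (0.0219) and mt-cyb by 0.58 ± 0.19 (0.0432), each with no overlap. The groups did not overlap for 5 of the 6 messages and for 36.6% of all genes tested, 18.6% with the higher values at 37.5 nM. mt-co1 differed by 0.50 ± 0.20 log2 (edgeR adjusted p = 0.0833), with 3 of 4 values at 37.5 nM above the 3.75 nM group.

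Summed markers of some cell types differed with dose in the lower series, while those of others overlapped. The 4 endocrine pancreas gene rows summed to 0.386 to 13.6 CPM at 37.5 nM, against 78.6 to 572 CPM at 3.75 nM. The 11 exocrine rows overlapped, at 361 to 10713 CPM against 2268 to 14144 CPM. So did the 14 hepatocyte rows, at 192376 to 242767 CPM against 141214 to 234032 CPM. The 10 intestine rows also overlapped, at 1965 to 3073 CPM against 733 to 13414 CPM, the highest being fish 166. The 9 erythrocyte rows summed to 130 to 201 CPM at 37.5 nM, against 49.6 to 128 CPM at 3.75 nM. Their part in the change of the 6 messages, or of the nuclear genes given further on, was not tested.

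The difference between the 2 series was tested as an interaction over the 18 fish, as the dose change in the upper series minus that in the lower. It was below 0 for all 6 messages, from −0.53 to −0.35, and none passed (edgeR adjusted p = 0.454 to 0.641, 0 at an unadjusted p below 0.05), beside 6.33% of 17217 genes past the adjusted and 21.7% past the unadjusted threshold. Without the 2 libraries of high intestine markers it was −0.37 to −0.23, with 0 of the 6 and 2.36% of all genes past the adjusted threshold. DESeq2 and limma voom also called 0 of the 6. A difference in dose change between the series was thus not shown for the 6 messages.

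The series themselves were set against each other within each dose. At 3.75 nM all 6 messages were higher in the upper series (5 fish) than in the lower (4 fish), by 0.42 to 0.62 log2. None passed edgeR at an adjusted p below 0.05, beside 11.9% of 15842 genes, while 6 of 6 had an unadjusted p below 0.05, beside 31.3% of all genes and 15.7% that were higher. Tools differed here. DESeq2 called 5 of the 6, with mt-co1 the exception, and limma voom called all 6, beside 22.4% and 28.5% of all genes. By edgeR, 4 of the 6 passed when libraries were scaled by size alone (8.07% of all genes) and 5 among genes with a mean of at least 4 CPM (18.5%).

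The values at 3.75 nM did not overlap between the series for 5 of the 6, beside 16.0% of all genes and 6.27% with the higher values in the upper series. mt-cyb had 5901, 6880, 6942, 7601 and 8341 CPM in the upper series fish, against 5363, 5045, 3776 and 5077 CPM in the lower, a log2 change of 0.56 ± 0.18 (edgeR adjusted p = 0.0668). mt-atp6 had 6648, 6865, 7746, 5967 and 6378 CPM in the upper series, against 5196, 4243, 4794 and 4567 CPM in the lower (0.51 ± 0.15, adjusted p = 0.06). Every upper series fish lay above every lower series fish for both genes. The changes of mt-co2, mt-co3 and mt-atp8 were 0.62 ± 0.21, 0.56 ± 0.18 and 0.42 ± 0.13 (adjusted p = 0.0831, 0.0724 and 0.0705). mt-co1 changed by 0.61 ± 0.24 (adjusted p = 0.125). It had 14251, 21494, 32003, 24178 and 22064 CPM in the upper series, against 16692, 15497, 12067 and 15202 CPM in the lower, so that fish 189 of the upper series lay among the lower series fish.

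Endocrine pancreas markers separated with this split, while exocrine ones overlapped and differed in their medians. The 11 exocrine pancreas gene rows summed to 52.5 to 19141 CPM in the upper series at 3.75 nM (median 1110) and 2268 to 14144 CPM in the lower (median 12191). The 4 endocrine pancreas gene rows summed to 0.748 to 43.3 CPM in the upper series and 78.6 to 572 CPM in the lower, with no gene row of either list at 0 in all fish of a series. Their part in the result was not tested. Without replicate 3, the library of high intestine markers, the 6 changes at 3.75 nM were 0.43 to 0.52 log2 with adjusted p-values of 0.122 to 0.245, and 17 of all genes (0.105%) passed. Without replicate 4 they were 0.42 to 0.66 with adjusted p-values of 0.148 to 0.228, again with 17 of all genes.

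At 37.5 nM the 1-year fish of the upper series (n = 5) and the lower (n = 4) overlapped for all 6 messages, while 9.00% of all genes did not overlap. The log2 changes, upper minus lower, were 0.069 for mt-atp8, 0.33 for mt-co1 and between these for the other 4, with edgeR adjusted p-values of 0.558 to 0.91. DESeq2 and limma voom called 0 of the 6. None had an unadjusted p below 0.05, against 20.5% of all genes, and 0.0313% of 15958 genes passed. mt-co1 had 29357, 37857, 23748, 13614 and 22779 CPM in the upper series, against 17695, 16678, 26462 and 23433 CPM in the lower. Without fish 199 (replicate 6) the direction of the other 5 messages turned, to between −0.14 and −0.021.

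**Figure D3:**
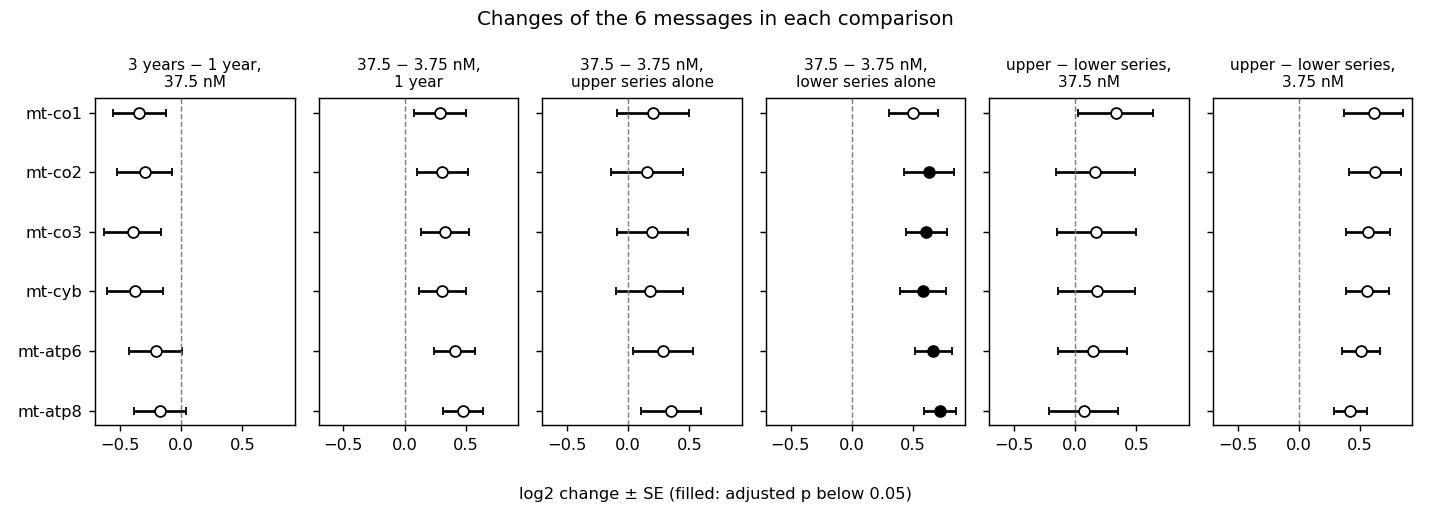
Log2 change ± SE (x axis, edgeR) of each of the 6 messages in 6 comparisons, from 3 years minus 1 year at the left to upper minus lower series at 3.75 nM at the right, with filled points for an adjusted p below 0.05. The filled points are the 5 messages that passed in the lower series alone. All 6 lie below 0 in the age comparison and above 0 in the other panels.

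Age was compared at 37.5 nM, with 6 fish of 3 years and 9 of 1 year. All 6 messages were lower at 3 years, with log2 changes of −0.40 to −0.17 and a median of −0.32, against −0.0028 over all 16159 genes tested. In size, regardless of direction, 34.2% of genes changed more than mt-co3 and 63.9% more than mt-atp8, with the other messages between. None of the 6 passed edgeR, and none had an unadjusted p below 0.05 (the lowest was 0.108). Of all genes, 1.72% passed the adjusted and 18.8% the unadjusted threshold. DESeq2 and limma voom also called 0 of the 6, beside 7.40% and 5.28% of all genes. The 1-year fish at 37.5 nM entered both this comparison and the dose comparison, so the opposite signs of the 2 are not independent.

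mt-co1 had 12416, 18622 and 22797 CPM (lowest, median, highest) at 3 years, against 13614, 23433 and 37857 CPM at 1 year, a log2 change of −0.34 ± 0.22 (edgeR adjusted p = 0.423). mt-co2 changed by −0.30 ± 0.22 (adjusted p = 0.504). mt-co3 had 5987, 8211 and 12450 CPM at 3 years, against 6553, 10068 and 19303 CPM at 1 year, the lowest change of the 6 at −0.40 ± 0.23 (adjusted p = 0.381). The older fish lay inside or below the range of the younger ones, and no fish at 3 years lay above it.

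mt-cyb had 3781, 5703 and 8022 CPM at 3 years, against 4388, 6927 and 12509 CPM at 1 year (−0.38 ± 0.23, edgeR adjusted p = 0.399). mt-atp6 had 4489, 6277 and 10136 CPM at 3 years, against 4768, 7149 and 12554 CPM at 1 year (−0.21 ± 0.22, adjusted p = 0.645). mt-atp8 had 690, 899.7 and 1414 CPM at 3 years, against 591, 1006 and 1767 CPM at 1 year (−0.17 ± 0.21, adjusted p = 0.697). The age groups overlapped for all 6 messages, as they did for all but 0.879% of genes. Fish 181 was the lowest 3-year fish and fish 194 the highest for each of the 6 messages, with either scaling.

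Within the upper series (4 fish against 5) the age changes of the 6 were −0.40 to −0.081 log2, with none past the edgeR threshold, beside 0.181% of all genes. Within the lower (2 fish against 4) they were −0.50 to −0.34, with none past the threshold, beside 0.0801%. At an unadjusted p below 0.05 there were 0 of the 6 in both, beside 15.6% of all genes in the upper and 15.3% in the lower series. Summed erythrocyte markers had a median of 291 CPM at 3 years (199 to 450), against 201 CPM in 1-year fish at 37.5 nM (79.2 to 586). At 3.75 nM the median was 113 CPM (49.6 to 128). Over both series the 3-year values lay inside the range of the 1-year fish at 37.5 nM, and 1 of 9 gene rows was at 0 in every fish. In the lower series alone they did not overlap, at 252 to 450 CPM at 3 years against 130 to 201 CPM at 1 year. In the upper series they did, at 199 to 410 CPM against 79.2 to 586 CPM. The part of these markers in the age changes was not tested.

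The 7 complex I messages had similar dose changes, all above 0 with a median of 0.33, and 0 of 7 passed edgeR's adjusted threshold (2 had an unadjusted p below 0.05). In the age comparison 5 of the 7 were lower and 2 higher, with a median of −0.18 and 0 of 7 past the edgeR threshold (1 at an unadjusted p below 0.05). The lowest was mt-nd3, at 424 ± 95 CPM in 3-year fish (SD, n = 6) and 670 ± 254 CPM in 1-year fish (n = 9), a change of −0.65 ± 0.24 (adjusted p = 0.166).

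Nuclear genes that act on these messages and their products were counted in the same fits. At 37.5 nM, 12 of 30 genes of mitochondrial transcription and RNA handling fell and 0 rose, with a median of −0.33, against 0.027 over all genes, of which 8.19% fell and 3.19% rose. ptcd3, a pentatricopeptide repeat protein of the mitochondrial ribosome, fell by 1.27 ± 0.25 log2, with 9.97 ± 1.83 CPM at 37.5 nM and 24.2 ± 11.5 CPM at 3.75 nM (SD, n = 9 each, edgeR adjusted p = 0.00697). grsf1, an RNA binding protein of mitochondrial RNA granules, fell by 1.11 ± 0.24 (adjusted p = 0.01). Among those singled out after their values were seen, LRPPRC and SLIRP, which bind as a pair and stabilise mitochondrial messages in mammals, fell by 0.70 ± 0.16 and 0.74 ± 0.19 (adjusted p = 0.0118 and 0.0199). MTPAP, the poly(A) polymerase of mitochondrial messages, and tfb2m, a transcription factor of mitochondrial DNA, fell by 0.70 ± 0.21 and 0.62 ± 0.18 (adjusted p = 0.0361 and 0.0364). The calls of MTPAP and tfb2m were kept in 7 of 18 fits that left out 1 library, with adjusted p-values of 0.0823 and 0.0827 without replicate 4 at 3.75 nM. Without the 2 libraries of high intestine markers the calls of SLIRP, MTPAP and tfb2m were lost (edgeR adjusted p = 0.0591, 0.103 and 0.105).

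Assembly factors of complexes III, IV and V moved the same way. Of 30 tested, 14 fell and 1 rose at 37.5 nM, with a median of −0.52. cox17, a copper chaperone of complex IV, fell by 1.33 ± 0.24, with 6.47 ± 1.2 CPM at 37.5 nM and 16.3 ± 7.53 CPM at 3.75 nM (edgeR adjusted p = 0.00663), and 8 of 9 values at 37.5 nM were under the whole 3.75 nM group. UQCC2, a factor for the making of cytochrome b, fell by 1.27 ± 0.27 (adjusted p = 0.00949). BCS1L, singled out after its values were seen, fell by 1.59 ± 0.35 (adjusted p = 0.0104). The factor that rose, also named after its values were seen, was uqcc3, at 0.97 ± 0.21 (adjusted p = 0.01).

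The count of assembly factors that fell lay between 7 and 18 in fits that left out 1 library, and was 6 without the 2 libraries of high intestine markers. For RNA handling genes these counts were 7 to 14, and 6. Of all genes, 5.81% to 16.1% passed in either direction without 1 library, and 5.73% without the 2 libraries of high intestine markers. In the upper series alone no gene of either list passed edgeR, as for all 16034 genes tested (0.00%). There cox17 stood at −0.68 (adjusted p = 0.554), UQCC2 at −0.48 (0.587) and LRPPRC at −0.61 (0.608). For some of the genes named above the dose change differed between the series by edgeR's interaction, upper minus lower. These were cox17 (1.05 ± 0.26, adjusted p = 0.0237), UQCC2 (1.25 ± 0.24, 0.00881), uqcc3 (−1.22 ± 0.33, 0.0382) and tfb2m (0.73 ± 0.20, 0.0437), beside 6.33% of all genes. That share was 2.36% without the 2 libraries of high intestine markers, and alternative fits are not given for these interaction calls. In the lower series alone 23 assembly factors fell and 1 rose, and 14 RNA handling genes fell and 5 rose, beside 17.5% of all genes that fell and 17.3% that rose. Between the series at 3.75 nM, 14 of 30 assembly factors were lower in the upper series and 0 higher, and 9 of 30 RNA handling genes were lower and 2 higher, beside 6.66% of all genes lower and 5.24% higher. Both counts of lower genes became 0 without replicate 3, the library of high intestine markers, and also without replicate 4. Of all genes, 11.9% passed in either direction with every fish, against 0.105% without replicate 3 and 0.104% without replicate 4.

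Nuclear subunits of the complexes were counted beside the 8.19% of all genes that fell and 3.19% that rose. At 37.5 nM, 1 of 8 complex III subunits fell (UQCR10, −0.50 ± 0.14, edgeR adjusted p = 0.0306), 2 of 17 complex IV subunits fell (cox6a1, −0.97 ± 0.26, and COX7A2, −0.48 ± 0.13, adjusted p = 0.0235 and 0.0261), and 0 of 17 complex V subunits passed (0 by DESeq2 and 2 by limma voom, both lower). None of these subunits rose, and the medians were −0.25, −0.033 and −0.11. The cox6a1 row named here and in the age comparison is ENSDARG00000022438. A second row of this symbol, ENSDARG00000054588, was not among the genes that passed for dose or age. At 3.75 nM that row was higher in the upper series, by 0.57 ± 0.15 (edgeR adjusted p = 0.041). Without replicate 3, the library of high intestine markers, no complex IV subunit was called higher there. The call of UQCR10 was kept in 10 of 18 fits without 1 library (adjusted p = 0.0669 without replicate 3 at 3.75 nM) and was lost without both libraries of high intestine markers (adjusted p = 0.0762). The calls of cox6a1 and COX7A2 were kept in 16 and 14 (adjusted p = 0.0546 without replicate 4 and 0.0575 without replicate 1 at 3.75 nM). Among 16 genes for the upkeep of mitochondrial DNA, 2 fell and 0 rose, with a median of −0.34. They were ENDOG, a mitochondrial endonuclease, at −1.02 ± 0.25 (adjusted p = 0.0158), and RNASEH1, which removes RNA from RNA–DNA hybrids, at −0.54 ± 0.14 (adjusted p = 0.0225). The call of RNASEH1 was kept in 16 of 18 such fits (adjusted p = 0.052 without replicate 3 at 3.75 nM).

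In the age comparison 1 of 119 tested gene rows of these nuclear lists passed, beside the 1.72% of all genes (0.897% higher and 0.823% lower at 3 years). atp5mc1, a gene for the membrane ring of ATP synthase, had 162 ± 23 CPM in 3-year fish and 109 ± 22 CPM in 1-year fish at 37.5 nM (SD, n = 6 and 9), a rise of 0.58 ± 0.14 (edgeR adjusted p = 0.0426). Its call was kept in 3 of 15 fits that left out 1 library, and its adjusted p was 0.118 without replicate 5 at 3 years and 0.0608 without the library of high intestine markers. The medians were 0.24 for complex V, 0.19 for complex III and −0.061 for complex IV. Nearest to the threshold stood cox6a1, a complex IV subunit, with 49.2 ± 29.0 CPM in 3-year fish and 18.7 ± 5.33 CPM in 1-year fish, a log2 change of 1.39 ± 0.34 (edgeR adjusted p = 0.0527). Of the 6 older fish, 4 lay above the whole younger group and 1 below it, and without the library of high intestine markers its adjusted p was 0.0453. Among genes that did not pass, LRPPRC stood at 0.57 ± 0.15 (adjusted p = 0.0587), ATPAF2, an assembly factor of ATP synthase, at 0.81 ± 0.22 (adjusted p = 0.0654), uqcrc2a, a core protein of complex III, at 0.54 ± 0.14 (adjusted p = 0.0676) and TFB1M, an RNA methyltransferase of the mitochondrial ribosome, at −0.91 ± 0.24 (adjusted p = 0.0676), with 5 of 6 older fish below all 9 younger ones.

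**Figure D4:**
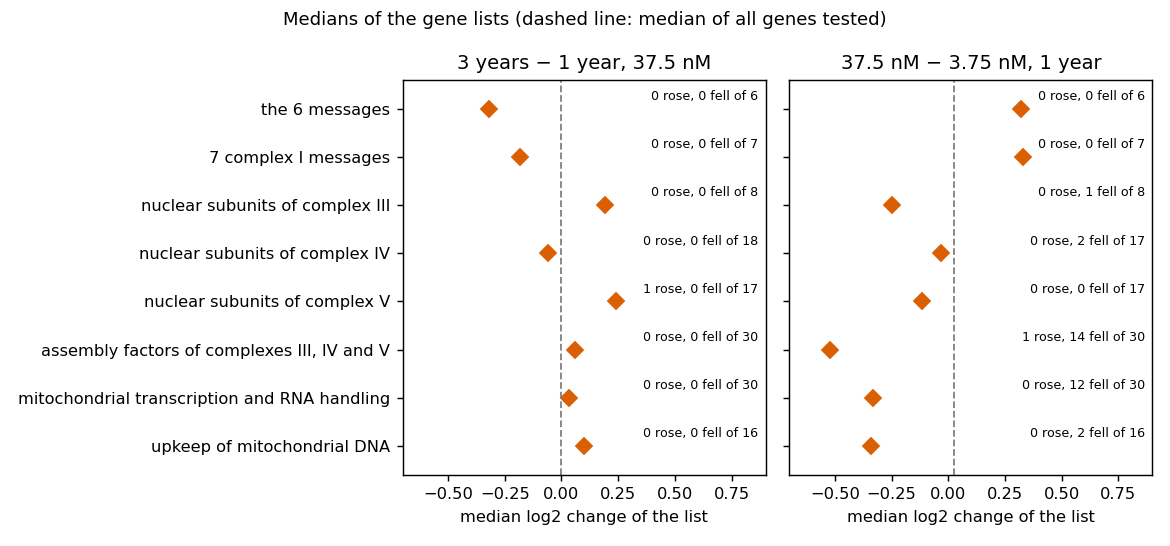
Median log2 change (x axis) of the 6 messages, the 7 complex I messages and 6 lists of nuclear genes, at the left for 3 years minus 1 year at 37.5 nM and at the right for 37.5 nM minus 3.75 nM at 1 year, with the number of genes that passed in each direction and a dashed line at the median of all genes tested. In the dose comparison the 6 messages stand at 0.32 with 0 calls, and assembly factors at −0.52 with 14 that fell and 1 that rose.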

How the data were processed

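The authors deposited raw counts per gene for each fish. According to the submitters' processing notes, bases were called with CASAVA 1.8.2, reads were aligned with STAR 2.4.1d to GRCz10 and counts were made with featureCounts 1.4.6-p4. Libraries were made with the TruSeq RNA v2 kit, per the labels. The deposited values that the authors named RPKM did not follow from each column's own count and total. These deposited values, for which the authors' scaling is not given in the sources used here, were treated as a score. They served only to recover gene lengths: at the best whole number of bases, 11 to 15 of 24 values per message matched the total of one of the 24 libraries (within 1e-05 on the natural log scale), against 1 or 2 at the next best length. These lengths equalled those of the RefSeq table for all 13 messages.

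The 2 count tables were joined on gene identifier. Each comparison was fitted on its own groups with edgeR 4.0.16 in R 4.3.3 (TMM factors, filterByExpr, two-sided quasi-likelihood F test), with Benjamini-Hochberg adjustment over all genes tested and a threshold of 0.05. Log2 CPM for correlations used a prior count of 0.5. The fit was tested on simulated data, in which only genes other than the mitochondrially encoded messages were changed. Those changes were larger than any found for the 6 messages, so the test cannot tell how well smaller changes are found. Alternatives changed the scaling, the filter, the tool (DESeq2 1.42.0, limma 3.58.1 voom) or the libraries used. No 2 libraries of a group repeated each other within counting noise (the lowest chi-square per gene was 89.3). The rule for named genes was the 6 messages, the 2 genes of lowest p in each list for dose and for age, of which those past or near the threshold are printed, and the most and least alike genes by correlation. Genes outside it are said to be singled out. The members and the gene lists were chosen with earlier results of these data known. Strand setting and annotation of the counting are not given in the sources used here.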

Additional observations from a re-analysis of the deposited data

How the results depend on the processing

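The directions of the 6 messages were kept in most alternatives, while calls near the threshold were not. In the dose comparison the 6 were above 0 in 183 of 186 values. Of them, 1 message passed with upper-quartile factors (beside 10.9% of all genes), with a filter of at least 4 CPM (18.6%), with DESeq2 (17.5%) and with number series as a covariate (16.5%). With limma voom 2 passed (25.8% of all genes), and in the lower series alone 5 passed (34.8%). Leaving out 1 library gave 0 to 1, the 1 without replicate 8 at 37.5 nM, beside 7.6% of all genes. For the series at 3.75 nM, 4 passed by library size alone (beside 8.07% of all genes) and 5 with the 4 CPM filter (18.5%). DESeq2 called 5 (22.4%) and limma voom 6 (28.5%), and leaving out 1 library gave 0 to 3. There were 3 without replicate 5, beside 22.7% of all genes, and 1 without replicate 6, beside 13.5%. Age, the series at 37.5 nM and the interaction gave 0 in every alternative run. Scaling to the sum of the 13 messages, of which the 6 make up most, holds them near 0 by construction. It shifted the median of all genes by −0.28 (dose), 0.23 (age), −0.11 (series at 37.5 nM), −0.53 (series at 3.75 nM) and 0.51 (interaction), and factors from nuclear genes alone shifted that of the interaction by 0.13. Some signs turned. These were dose mt-co1 −0.012, mt-co2 −0.0049 and mt-cyb −0.026, age mt-atp6 0.049 and mt-atp8 0.092, series at 37.5 nM mt-co2 −0.087, mt-co3 −0.093, mt-cyb −0.067, mt-atp6 −0.10 and mt-atp8 −0.19, series at 3.75 nM mt-atp6 −0.031 and mt-atp8 −0.11, and interaction mt-co1 0.075. For the series at 37.5 nM limma voom gave mt-co2 −0.0036, mt-co3 −0.015, mt-atp6 −0.046 and mt-atp8 −0.17. Leaving out 1 library there gave −0.021 to 0.32 for mt-co2, −0.034 to 0.33 for mt-co3, −0.028 to 0.33 for mt-cyb, −0.052 to 0.28 for mt-atp6 and −0.14 to 0.23 for mt-atp8, with the lowest values without replicate 6, and the cause was not tested.

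Counts over all genes moved more. The dose count of 1760 became 1131 with no filter, 2706 with DESeq2, 3985 with limma voom and 884 without the 2 libraries of high intestine markers, and 909 (without replicate 4 at 3.75 nM) to 2518 without 1 library. The share of dose calls that were higher, 28.0%, was 37.8% with upper-quartile factors, 19.2% by library size alone, 5.96% scaled to the 13 messages, 47.6% with limma voom and 49.6% in the lower series. The age count of 278 became 99 scaled to the 13 messages, 1196, 853 and 572 with DESeq2, limma voom and the series covariate, and 115 to 559 without 1 library, with 52.2% of calls higher against 65.8% with upper-quartile factors and 82.8% scaled to the 13 messages. The count for the series at 3.75 nM, 1885, became 3449 scaled to the 13 messages, 919 with no filter, 3541 with DESeq2, 4519 with limma voom and 17 to 3512 without 1 library, with 44.0% of calls higher against 66.4% by library size alone and 8.29% scaled to the 13 messages. The interaction count of 1089 became 58, 680, 2055 and 2802 in the same order, 408 without the 2 libraries of high intestine markers, and 516 to 2048 without 1 library, with 27.8% of calls higher against 37.8% with RLE factors, 44.4% with factors from nuclear genes and 41.4% scaled to the 13 messages. That of the series at 37.5 nM, 5, lay between 0 and 72 without 1 library and reached 1641 with DESeq2. No paired analysis was possible because fish numbers name single fish and pair none across groups.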

Other observations

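Fish 201 (1 year, 37.5 nM) was the lowest of its group for all 13 mitochondrially encoded messages under TMM scaling and by library size alone. Fish 181 was the lowest 3-year fish for all 13 under TMM scaling and for 12 of 13 by library size alone. Fish 199 was the highest of all 24 fish for all 13 under TMM scaling, while by library size alone fish 198 was the highest for 5 of 13.

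ENSDARG00000083312, the gene row outside the 13 messages most like the mean of the 6 (r = 0.870 over 24 fish), had an r of 0.847 once the means of each group and number series were taken out. The same step gave 0.789 for si:dkey-118j18.2, 0.660 for zfx and −0.62 for BCS1L. These are descriptions over fish that share a library scaling.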
